A study of Homo sapiens with 16 samples.

Results

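Laminins, fibronectin and tenascin C are secreted glycoproteins of the extracellular matrix, and their transcripts were followed here through a time course of hepatocyte growth factor (HGF). The 9 genes LAMA3, LAMA4, LAMA5, LAMB1, LAMB2, LAMB3, LAMC1, FN1 and TNC were taken by gene symbol, with no threshold on their values, from the 42351 genes of the count table. A line with wt MET was compared with a line that has MET∆14, the HGF receptor without the part encoded by exon 14, after 0, 3, 6 or 12 h of HGF. Each of these 8 conditions had 2 biological replicates, which gives 16 libraries. P-values rest on a spread per gene that was estimated from the duplicates of all 8 conditions together. The sample labels name A549, a lung cancer cell line, for wt MET, whereas the study's text abbreviates EKVX as WT. For MET∆14 they name NCI-H596, a lung adenosquamous carcinoma line that the study describes as carrying only the mutated allele. All cells were deprived of serum before HGF, for 12 h by the labels and 24 h by the methods, and the 0 h cells received no HGF. No library came from cells without HGF at 3, 6 or 12 h. The effect of HGF and that of the time in culture therefore cannot be told apart in any change against 0 h. Each form of MET was thus represented by a single cell line, so that the form of MET and the line cannot be told apart.

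A laminin is a cross-shaped trimer of an alpha, a beta and a gamma chain, and the combination of chains names the trimer. LAMA5 pairs with LAMB1 or LAMB2 and LAMC1 in the laminins that polymerize under most epithelia. LAMA3 and LAMB3 belong to the laminin that anchors stratified epithelia through hemidesmosomes, and LAMA4 belongs to laminins of vessels and mesenchyme. Fibronectin, encoded by FN1, is bound by integrins and assembled into fibrils. Tenascin C, encoded by TNC, is a hexameric glycoprotein that is prominent in wounds and tumour stroma. HGF is known as a scatter factor that loosens epithelial colonies.

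On hg38, the alpha chain genes are LAMA3 (ENSG00000053747, chr18:23689453-23956222, plus strand), LAMA4 (ENSG00000112769, chr6:112107931-112254939, minus strand) and LAMA5 (ENSG00000130702, chr20:62307955-62367312, minus strand). The beta chain genes are LAMB1 (ENSG00000091136, chr7:107923799-108003213, minus strand), LAMB2 (ENSG00000172037, chr3:49121114-49133118, minus strand) and LAMB3 (ENSG00000196878, chr1:209614870-209652425, minus strand). LAMC1 (ENSG00000135862, chr1:183023420-183145592, plus strand) encodes the gamma chain of the set. FN1 (ENSG00000115414) lies at chr2:215360440-215436073 on the minus strand, and TNC (ENSG00000041982) lies at chr9:115019575-115118207 on the minus strand. In the annotation, at most 2.6% of the exon bases of any of the 9 genes overlap an exon on the opposite strand (LAMB1), which matters because the use of strand in counting is not stated.

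RefSeq (GRCh38.p14) gives 11 promoter windows for the 9 genes. The 250 bases before each start site were searched on both strands for the AP-1 motif TGANTCA, the cyclic AMP response element TGACGTCA and the TATA-box core TATAA. No match overlapped another in these windows. These letters were found before 4 of the genes. They are shown, 30 bases each, 5′ to 3′ on the gene's strand with the match in capitals. A relation of these letters to the time courses was not tested.
TNC, TATA core 27 bases before the start, chr9:115118167-115118196, minus strand: aggagctcgctaTATAAgccagccaaagtt
FN1, TATA core 28 bases before the start, chr2:215436079-215436108, minus strand: gggaccgtcccaTATAAgccccggctcccg
FN1, cyclic AMP response element 183 bases before the start, chr2:215436233-215436262, minus strand: acagtcccccgTGACGTCAcccggagcccg
LAMA3, AP-1 motif 125 bases before the start, chr18:23872884-23872913, plus strand: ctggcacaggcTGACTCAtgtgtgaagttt
LAMA3, AP-1 motif 69 bases before the start, chr18:23872940-23872969, plus strand: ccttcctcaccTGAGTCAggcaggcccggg
LAMA3, TATA core 30 bases before the start, chr18:23872978-23873007, plus strand: aggaagggcaggTATAAgaggaagaggcag
LAMB3, AP-1 motif 67 bases before the innermost of its 3 listed starts, chr1:209651423-209651452, minus strand: gtcagccactcTGACTCAttcactttgggc
The LAMA3 window belongs to a start site 183567 bases inside the annotated gene. Of all 35116 windows of the same length, 6.57% held the AP-1 motif, 1.65% the cyclic AMP response element and 18.9% the TATA core. The windows of LAMA4, LAMA5, LAMB1, LAMB2 and LAMC1 held none of these letters, and the LAMA5 window had a GC content of 82.8% against 54.8% for TNC.

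Library totals ranged from 13226488 to 21970052 counts with wt MET and from 10158590 to 23909304 with MET∆14, and 15067 genes, including all 9, passed the filter on low counts. All wt MET libraries had 0 counts for CDKN2A, a gene deleted in A549. The MET∆14 replicates at 12 h stood apart, with a correlation of log2 CPM of 0.982 between them, and replicate 2 was closer to a 6 h library (0.987) than to its partner. By chi-square per degree of freedom the MET∆14 replicates at 12 h differed most, at 26.9 against 2.80 to 3.78 in the other MET∆14 conditions. The 0 h wt MET replicates differed more than those of the later wt MET conditions, at 7.74 against 2.36 to 3.14. The tests used a spread per gene shared by all conditions, so the SE does not follow these differences. At 12 h with MET∆14 it can be too small. Squamous markers (TP63, KRT5, KRT6A, KRT14 and DSG3) summed to 2348 to 3336 CPM (counts scaled to library size) with MET∆14 and 0.970 to 3.10 with wt MET, where KRT14 was at 0. Simple epithelial markers were present in both lines, at 1737 to 2518 CPM with wt MET and 2016 to 3227 with MET∆14. Fibroblast markers summed to 11.4 to 19.5 CPM with wt MET and 187 to 346 with MET∆14, with DCN at 0 in the former and LUM at 0 in the latter. Of the 6 fibroblast markers listed, 3 exceeded 3 counts in at least 1 wt MET library and 2 in at least 1 MET∆14 library. Endothelial markers stayed at or below 1.99 CPM in every library, and of the leukocyte markers tested only CD68 exceeded 3 counts. Exons of other genes on the same strand overlap 81.6% of the CD68 exon bases, so its reads cannot be assigned with certainty.

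Before HGF, all 9 transcripts were higher in MET∆14 cells than in wt MET cells. The test called 9 of 9 as higher, at an adjusted p under 0.05, against 80.2% of all genes called and 40.6% called as higher. The median difference of the 9 was 1.64 on the log2 scale against 0.02 over all genes tested. The largest difference was that of LAMA4, which had 1.38 and 0.636 CPM in the wt MET replicates (19 and 9 counts) and 63.6 and 65.2 CPM in the MET∆14 replicates. The log2 difference was 6.00 (SE 0.21, quasi-likelihood F test of edgeR, Benjamini-Hochberg adjusted p = 8.64e-13). LAMA3 had 57.4 and 49.1 CPM with wt MET and 313 and 319 CPM with MET∆14, a log2 difference of 2.57 (SE 0.13, edgeR, adjusted p = 4.56e-11). LAMB3 had 69.5 and 113 CPM against 539 and 519 CPM, a log2 difference of 2.54 (SE 0.17, edgeR, adjusted p = 1.84e-09). LAMA5, TNC and LAMB1 followed with log2 differences of 1.65 (SE 0.19), 1.64 (SE 0.13) and 1.44 (SE 0.12). LAMC1, LAMB2 and FN1 differed least, by 0.90 (SE 0.10), 0.86 (SE 0.10) and 0.74 (SE 0.20). The replicates of the 2 lines did not overlap for any of the 9, but the share of all genes without such overlap was not counted. The summed squamous and fibroblast markers above were also higher with MET∆14, and their part in these differences was not tested. The fibroblast sum rested on the only 2 of 6 markers that exceeded 3 counts in any MET∆14 library. RNA came from whole cultures, so fewer cells of a type and less RNA per cell cannot be told apart.

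Levels of different genes were compared per kilobase of exon. With wt MET at 0 h, LAMC1 (59.1 ± 0.978 CPM per kilobase, SD, n = 2) and LAMA5 (54.6 ± 7.61) led, and their neighbouring values did not differ beyond the spread. LAMB3 (19.6 ± 6.58), LAMB2 (18.9 ± 2.22) and FN1 (17.8 ± 5.18) lay within the spread of each other, followed by LAMB1 (12.8 ± 1.71), TNC (5.35 ± 0.520) and LAMA3 (3.68 ± 0.406), with LAMA4 last at 0.0839 ± 0.0436. With MET∆14 at 0 h, LAMA5 led at 171 ± 7.12 CPM per kilobase, then LAMB3 (114 ± 2.99) and LAMC1 (111 ± 2.28) and, further down, LAMB1 (34.7 ± 0.726) and LAMB2 (34.4 ± 1.11), which were close to each other. FN1 followed at 29.7 ± 0.406, LAMA3 at 21.8 ± 0.285, TNC at 16.6 ± 0.791 and LAMA4 at 5.37 ± 0.0981 CPM per kilobase. After 12 h of HGF, TNC stood below LAMC1 and LAMA5 alone with wt MET, at 23.1 ± 1.36 CPM per kilobase. In the MET∆14 line it stood below LAMA5, LAMC1 and LAMB3, at 39.7 ± 8.30. The place of LAMB1 and FN1 depends on the length used. By the longest transcript LAMB1 stood at 35.4 ± 4.71 and FN1 at 33.4 ± 9.72 CPM per kilobase with wt MET at 0 h, above both LAMB2 and LAMB3. With MET∆14 at 12 h LAMB1 stood above TNC by that length, and FN1 and TNC lay within the spread of each other.

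**Figure D1:**
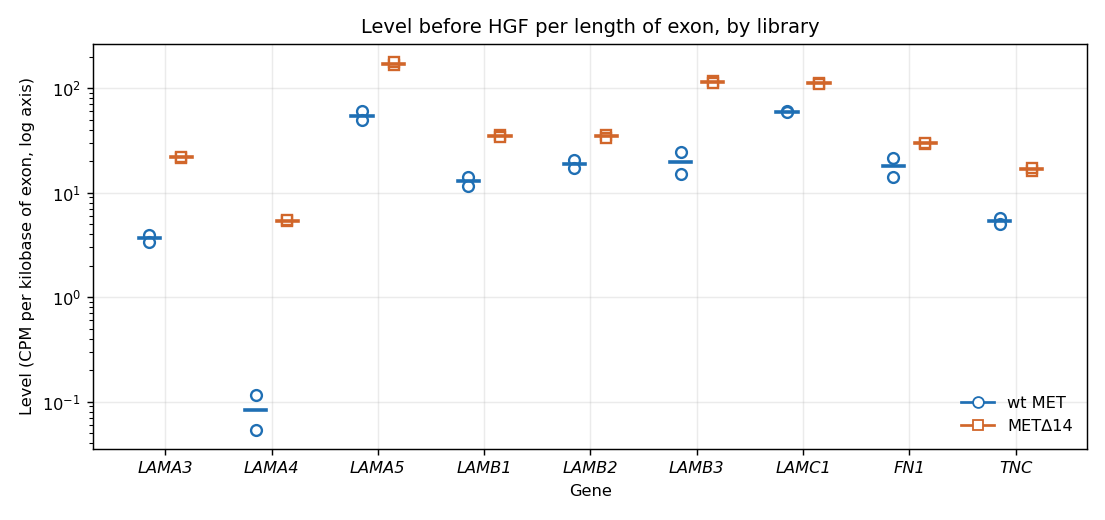
Level of each gene before HGF in CPM per kilobase of exon (log axis), with 1 point per library and a bar at the mean of the 2 replicates, for wt MET (circles) and MET∆14 (squares). Every gene was higher with MET∆14, from a log2 difference of 0.74 (FN1) to 6.00 (LAMA4).

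After HGF was added, the 9 transcripts moved in different directions within a line and differently between the lines. In wt MET cells TNC rose at all 3 times, whereas LAMB1 fell at all 3 and FN1, LAMB2, LAMA5 and LAMA3 were lower by 12 h. In MET∆14 cells TNC and LAMA4 rose, LAMB2 fell, LAMA5 was lower at 3 and 6 h and LAMB3 was higher at 6 h only. There neither LAMB1 nor FN1 passed the test at any time in the fit used here. LAMC1, the gamma chain that most laminins share, passed it in neither line in that fit, but with wt MET it was called in several alternative fits. With wt MET, 1 gene was called as higher and 1 as lower at 3 h, against 17.4% of all genes called, 10.3% as higher and 7.16% as lower. At 6 h 1 was higher and 3 were lower, against 34.2% of all genes called, 16.4% and 17.8% in these directions. At 12 h 1 was higher and 5 were lower, against 35.1%, 16.9% and 18.2%. With MET∆14, 0 were called as higher and 1 as lower at 3 h, against 31.7% of all genes called, 15.5% as higher and 16.1% as lower. At 6 h 3 were higher and 2 lower, against 44.1%, 21.6% and 22.5%, and at 12 h 2 were higher and 1 lower, against 38.3%, 18.3% and 20.1%. Over the 3 times together, 6 of 9 were called with wt MET against 40.3% of all genes, and 5 of 9 with MET∆14 against 54.1%. The counts at 12 h and over the 3 times with wt MET lay above the share of all genes, and that at 3 h with MET∆14 lay below it. These counts are small, and each of them moved when 1 library was left out. The median log2 fold change of the 9 at 12 h was -0.46 with wt MET and -0.04 with MET∆14, against 0.00 and -0.02 over all genes tested.

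TNC gave the largest rise of the set in both lines. With wt MET its replicates had 54.8 and 47.8 CPM at 0 h, 81.9 and 78.0 at 3 h, 126 and 138 at 6 h, and 212 and 230 at 12 h. No replicate of a later time overlapped an earlier time. The log2 fold changes against 0 h were 0.64 (SE 0.13, edgeR, adjusted p = 0.00362), 1.36 (SE 0.13, adjusted p = 2.75e-06) and 2.11 (SE 0.13, adjusted p = 8.35e-08), the last a 4.31-fold rise. With MET∆14 it had 154 and 165 CPM at 0 h, 149 and 155 at 3 h, 209 and 250 at 6 h, and 437 and 325 at 12 h. The 0 h and 3 h replicates overlapped and the later ones lay above them, with log2 fold changes of -0.07 (SE 0.13, edgeR, adjusted p = 0.707) at 3 h, 0.52 (SE 0.12, adjusted p = 0.00325) at 6 h and 1.26 (SE 0.13, adjusted p = 3.02e-06, 2.39-fold) at 12 h. Without the 12 h MET∆14 replicate 1 the last value was 1.02 (edgeR, adjusted p = 1.66e-07), and without replicate 2 it was 1.44 (adjusted p = 6.01e-10). TNC was also the only member called in both lines from 3 to 6 h and from 6 to 12 h. From 3 to 6 h it rose by 0.72 (SE 0.13) with wt MET and 0.60 (SE 0.13) with MET∆14 on the log2 scale, and from 6 to 12 h by 0.74 (SE 0.13) and 0.73 (SE 0.12). From 6 to 12 h with wt MET, 4 others were called, all as lower, namely LAMB1 (-0.82, SE 0.12), FN1 (-0.83, SE 0.20), LAMA5 (-0.72, SE 0.19) and LAMB2 (-0.40, SE 0.10). In these steps 3.1% and 9.77% of all genes were called from 3 to 6 h, and 11.6% and 18.6% from 6 to 12 h. The call at 6 h with MET∆14 was lost without replicate 2 of that condition (edgeR, adjusted p = 0.0595). Those from 3 to 6 h were lost in either line without either 3 h replicate or replicate 2 at 6 h of that line, where the values were 0.45 to 0.75.

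LAMB1, the beta chain of the widespread laminins, was the gene that fell most. With wt MET its replicates had 261 and 216 CPM at 0 h, 167 and 157 at 3 h, 120 and 126 at 6 h, and 70.5 and 68.5 at 12 h. Each time lay wholly below the previous time. The log2 fold changes were -0.56 (SE 0.12, edgeR, adjusted p = 0.00478), -0.96 (SE 0.12, adjusted p = 3.21e-05) and -1.78 (SE 0.13, adjusted p = 1.95e-07), so that 0.292 of the starting level remained at 12 h. With MET∆14 LAMB1 had 655 and 636 CPM at 0 h, 552 and 561 at 3 h, 515 and 550 at 6 h, and 718 and 535 at 12 h. The 3 and 6 h replicates lay below those at 0 h, and the 12 h replicates lay on either side of the 0 h and 3 h replicates. The log2 fold changes were -0.21, -0.28 and -0.04 (SE 0.12 each, edgeR, adjusted p = 0.190, 0.0703 and 0.822). Without the 12 h MET∆14 replicate 1 the 12 h value was -0.27 and passed the test (edgeR, adjusted p = 0.0208), and without replicate 2 it was 0.14 (adjusted p = 0.190). Without either 12 h MET∆14 library the values at 3 h (-0.21 both times) and 6 h (-0.27 and -0.28) with MET∆14 were called as well, and that at 6 h was also called by DESeq2 (adjusted p = 0.0450), without a filter on low counts and with the stricter filter of 10 counts in every library. The fall at 3 h with wt MET was no longer called without replicate 2 of that condition (-0.50) or without replicate 1 at 0 h (-0.42).

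FN1 showed a like course at a smaller size. Its wt MET replicates had 369 and 243 CPM at 0 h, 231 and 219 at 3 h, 189 and 211 at 6 h, and 108 and 118 at 12 h. The 0 h replicates lay far from each other but above all later libraries, and the log2 fold changes were -0.44 (SE 0.20, edgeR, adjusted p = 0.155), -0.61 (SE 0.20, adjusted p = 0.0311) and -1.44 (SE 0.21, adjusted p = 0.000153). With MET∆14 FN1 had 506 and 516 CPM at 0 h, 401 and 402 at 3 h, 355 and 550 at 6 h, and 492 and 376 at 12 h. The 3 and 12 h replicates lay below those at 0 h, and the 6 h replicates lay on either side of all other times. No log2 fold change passed the test (-0.35 at 3 h, -0.17 at 6 h and -0.24 at 12 h, SE 0.20 each), whereas without a filter on low counts the value at 3 h was called (-0.34, edgeR, adjusted p = 0.00727), as was the change over the 3 times together (adjusted p = 0.0276). The call at 6 h with wt MET was lost in 5 of 16 fits that each left out 1 library, namely replicate 1 at 0 h of that line (-0.28), either of its 6 h replicates or either 12 h MET∆14 replicate. It was also lost when each line was fitted alone (-0.58, edgeR, adjusted p = 0.0555). The value at 3 h with wt MET was called without a filter on low counts (-0.42, edgeR, adjusted p = 0.00116) and without replicate 2 at 0 h (-0.69, edgeR, adjusted p = 0.0366).

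LAMA5, the alpha chain of the same widespread laminins, fell in both lines, but at different times. With wt MET it had 857 and 703 CPM at 0 h, 944 and 834 at 3 h, 797 and 806 at 6 h, and 482 and 490 at 12 h. The 12 h replicates lay below all others, with a log2 fold change of -0.68 (SE 0.19, edgeR, adjusted p = 0.0113), after 0.19 at 3 h and 0.04 at 6 h (SE 0.19 each, adjusted p = 0.542 and 0.911). With MET∆14 it had 2372 and 2516 CPM at 0 h, 1524 and 1598 at 3 h, 1366 and 1423 at 6 h, and 2579 and 1448 at 12 h. Levels at 3 and 6 h lay wholly below those at 0 h, with log2 fold changes of -0.65 (SE 0.19, edgeR, adjusted p = 0.0160) and -0.81 (SE 0.19, adjusted p = 0.00277). At 12 h replicate 1 was as high as before HGF and 1.78 times replicate 2, and the log2 fold change of -0.28 (SE 0.19, edgeR, adjusted p = 0.259) depended on which was kept. It was -0.76 without replicate 1 (edgeR, adjusted p = 5.29e-06) and 0.07 without replicate 2 (adjusted p = 0.605), where the lone library was assumed to vary like the others. Without a filter on low counts the 12 h value with MET∆14 was called (-0.28, edgeR, adjusted p = 0.0244). The fall at 3 h with MET∆14 was not called without replicate 2 at 0 h or either 3 h replicate of that line (-0.60 to -0.68). With each line fitted alone it was not called either (-0.60, edgeR, adjusted p = 0.0777), nor was the change over the 3 times with MET∆14 (adjusted p = 0.0582). The fall at 12 h with wt MET was not called without replicate 1 at 0 h (-0.53) or either 12 h replicate of that line. Among the other members the 12 h MET∆14 replicate 1 stood at 0.989 (LAMB3) to 1.35 (TNC) times replicate 2.

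LAMB2, the beta chain that replaces LAMB1 in some laminins, declined in both lines. It had 141 and 119 CPM at 0 h, 122 and 109 at 3 h, 98.2 and 112 at 6 h, and 80.6 and 79.1 at 12 h with wt MET. The earlier times overlapped their neighbours and the 12 h replicates lay below all. The log2 fold changes were -0.17 (SE 0.10, edgeR, adjusted p = 0.297), -0.31 (SE 0.10, adjusted p = 0.0332) and -0.70 (SE 0.10, adjusted p = 0.000143). With MET∆14 it had 242 and 231 CPM at 0 h, 209 and 200 at 3 h, 172 and 193 at 6 h, and 181 and 161 at 12 h. Only the 6 and 12 h replicates overlapped. The log2 fold changes were -0.21 (SE 0.10, edgeR, adjusted p = 0.134), -0.37 (SE 0.10, adjusted p = 0.00743) and -0.47 (SE 0.10, adjusted p = 0.00214). The 12 h value with MET∆14 was -0.56 without replicate 1 and -0.40 without replicate 2, both still called. The call at 6 h with wt MET was lost in 8 of 16 fits without 1 library, with the lowest size of -0.18 without replicate 1 at 0 h. That at 6 h with MET∆14 was lost without its replicate 1 (-0.30, edgeR, adjusted p = 0.0732).

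LAMA4 was nearly silent in wt MET cells, with 9 to 23 counts per library and 0.545 to 1.38 CPM, and no change was called. With MET∆14 it had 63.6 and 65.2 CPM at 0 h, 69.5 and 74.0 at 3 h, 87.0 and 90.6 at 6 h, and 121 and 95.4 at 12 h. Each time lay above the previous time, with log2 fold changes of 0.16 (SE 0.12, edgeR, adjusted p = 0.356), 0.46 (SE 0.12, adjusted p = 0.00575) and 0.75 (SE 0.12, adjusted p = 0.000202). Without the 12 h replicate 1 the last value was 0.57, and without replicate 2 it was 0.90, both called. The rise at 6 h was not called without its replicate 2 (0.43, edgeR, adjusted p = 0.0505). In wt MET cells LAMA4 gave 0.08 at 3 h, -0.51 at 6 h and 0.26 (SE 0.36, edgeR, adjusted p = 0.618) at 12 h.

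LAMA3 and LAMB3, the alpha and beta chains of the hemidesmosomal laminin, moved little. LAMA3 ranged from 38.5 to 57.4 CPM with wt MET and from 251 to 324 CPM with MET∆14. With wt MET its 12 h replicates, 38.8 and 38.5 CPM, lay below all others, and the log2 fold change was -0.46 (SE 0.13, edgeR, adjusted p = 0.0109). It was not called without replicate 1 at 0 h (-0.34) or either 12 h replicate of that line (-0.48 and -0.46). With MET∆14 its 3 h replicates lay below those at 0 h, the 6 and 12 h replicates lay on either side of them, and the values were -0.21, -0.12 and -0.14 (SE 0.12 each, edgeR, adjusted p = 0.195, 0.437 and 0.368). Without the 12 h MET∆14 replicate 1 the last became -0.33 and was called (edgeR, adjusted p = 0.0173), and without replicate 2 it was 0.01. LAMB3 had 539 and 519 CPM at 0 h, 626 and 596 at 3 h, 661 and 834 at 6 h, and 550 and 556 at 12 h with MET∆14. The 6 h replicates were the highest and lay apart from each other, with a log2 fold change of 0.50 (SE 0.16, edgeR, adjusted p = 0.0169), and at 12 h the value was 0.07 (SE 0.16, adjusted p = 0.781). The 6 h rise was not called without its replicate 2 (0.31) or without either 0 h replicate of that line. Its call over the 3 times together (edgeR, adjusted p = 0.0459) was lost in 13 of 16 fits without 1 library. With wt MET LAMB3 ranged from 69.5 to 113 CPM, both of these at 0 h, and no time passed the test. Without the 0 h replicate 2, the one at 113 CPM, the log2 fold changes were 0.43, 0.70 and 0.45 at 3, 6 and 12 h, and all 3 were called (edgeR, adjusted p = 0.0340, 0.00115 and 0.0163).

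LAMC1 ranged from 494 to 623 CPM with wt MET and from 920 to 1215 CPM with MET∆14. Its log2 fold changes with wt MET were 0.00 at 3 h, 0.27 at 6 h and 0.25 at 12 h (SE 0.10 each, edgeR, adjusted p = 1, 0.0575 and 0.0725). With MET∆14 they were 0.02, 0.12 and 0.22 (SE 0.10 each, edgeR, adjusted p = 0.897, 0.371 and 0.0996), and estimate plus or minus 2 SE at 12 h spans 0.02 to 0.43. The 12 h value with MET∆14 was 0.04 without replicate 1 and 0.37 without replicate 2, and only the latter was called (edgeR, adjusted p = 0.000396). By DESeq2 the 12 h value with MET∆14 was called as well (0.24, adjusted p = 0.0234). Over the 3 times together the change with wt MET was not called in the fit used here (edgeR, adjusted p = 0.0554). It was called by DESeq2 (adjusted p = 0.00198) and, in edgeR, with its size factors (0.0350), without a filter (0.0224), with the stricter filter (0.0331) and in the line alone (0.00112). With wt MET, the value at 12 h was called by DESeq2 (0.26, adjusted p = 0.0141) and in 3 of the other 5 alternative fits, the value at 6 h was called by DESeq2 (0.29) and in 4 of the other 5 alternative fits, and those at 6 and 12 h were called without either 12 h MET∆14 library, at nearly the same sizes (0.24 to 0.29).

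**Figure D2:**
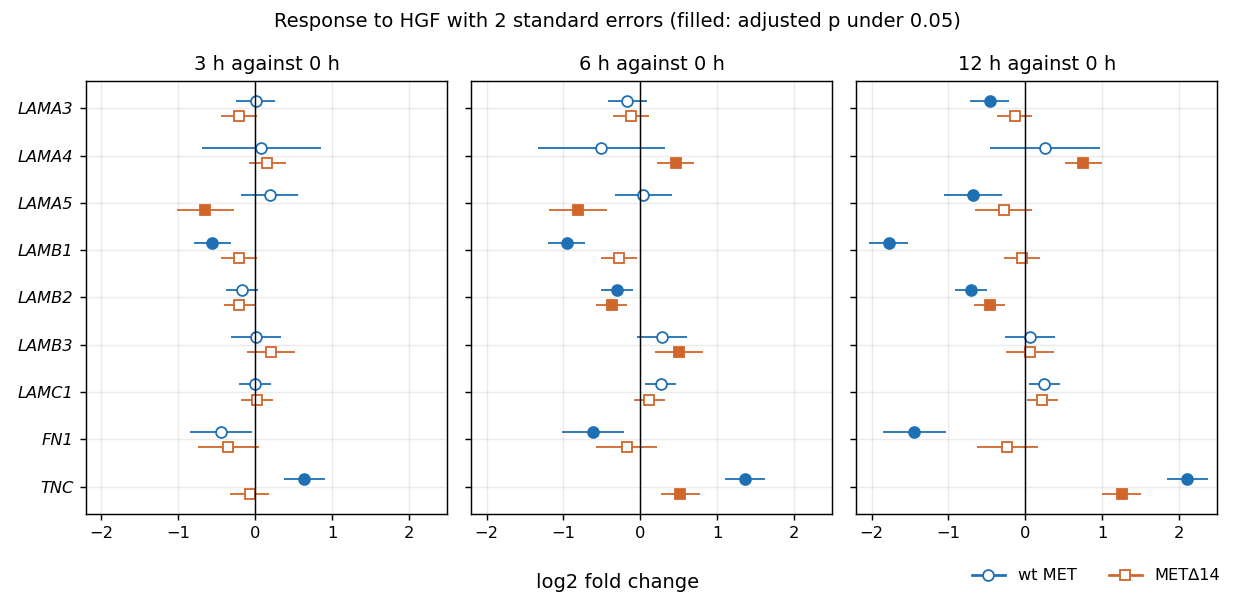
Log2 fold change against 0 h of the same line at 3, 6 and 12 h, with bars of 2 SE, for wt MET (circles) and MET∆14 (squares), where filled symbols have an adjusted p under 0.05. TNC reached 2.11 and 1.26 at 12 h, and LAMB1 and FN1 reached -1.78 and -1.44 with wt MET against -0.04 and -0.24 with MET∆14.

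Whether the lines responded differently was tested as the difference of their log2 fold changes, MET∆14 minus wt MET. Over the 3 times together, 4 of 9 genes differed against 37.6% of all genes, namely LAMB1, TNC, FN1 and LAMA5. The response of LAMB1 was 0.68 (SE 0.17, edgeR, adjusted p = 0.00656) higher with MET∆14 at 6 h and 1.74 (SE 0.17, adjusted p = 8.00e-06) higher at 12 h. That of FN1 was 1.21 (SE 0.28, adjusted p = 0.00744) higher at 12 h. For TNC the difference was below 0 at every time, at -0.71 (SE 0.18, edgeR, adjusted p = 0.0137), -0.84 (SE 0.18, adjusted p = 0.00250) and -0.85 (SE 0.18, adjusted p = 0.00309). From 3 h on, the steps of TNC were 0.72 and 0.74 with wt MET and 0.60 and 0.73 with MET∆14, and the difference at 12 h was near that at 3 h. LAMA5 responded lower with MET∆14 at 3 h (-0.84, SE 0.26, edgeR, adjusted p = 0.0411) and 6 h (-0.85, SE 0.26, adjusted p = 0.0246), and at 12 h the difference was 0.40 (SE 0.26, adjusted p = 0.302). Without a filter on low counts this 12 h difference was called (0.41, edgeR, adjusted p = 0.0253). At single times 2, 3 and 3 of 9 differed at 3, 6 and 12 h, against 17.4%, 30.2% and 24% of all genes.

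For the other 5 genes a difference over the 3 times was not shown in the fit used here. That of LAMA3 was called without a filter on low counts (edgeR, adjusted p = 0.0172). When 1 library was left out, it was called in 3 of 16 fits for LAMA3 and in 1 of 16 for LAMB3. Estimate plus or minus 2 SE gives the bounds of the difference at 12 h. They were -0.05 to 0.53 for LAMB2, which fell in both lines, -0.02 to 0.67 for LAMA3, -0.44 to 0.45 for LAMB3, -0.32 to 0.26 for LAMC1 and -0.28 to 1.27 for LAMA4. The 12 h difference of FN1 was lost without the 12 h MET∆14 replicate 1 (edgeR, adjusted p = 0.0818). Those of LAMA5 at 3 and 6 h were lost in 7 and 4 of 16 fits without 1 library (-0.72 to -0.94), and that of TNC at 3 h without the 0 h wt MET replicate 2 (adjusted p = 0.0508). Without the 12 h MET∆14 replicate 2, the 12 h differences of LAMA5 (0.76, edgeR, adjusted p = 6.34e-05) and LAMA3 (0.48, adjusted p = 0.0112) were called as well. The 12 h differences of LAMB1 and TNC were called without either 12 h MET∆14 replicate, at 1.51 and 1.93 for LAMB1 and -1.09 and -0.66 for TNC.

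**Figure D3:**
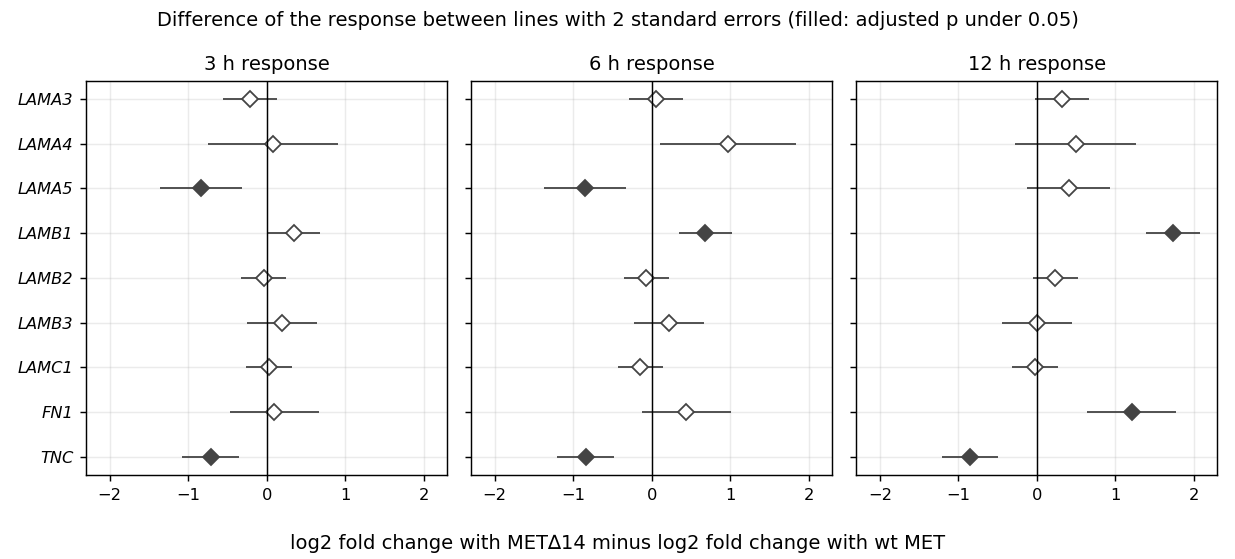
Difference of the log2 fold change against 0 h, MET∆14 minus wt MET, at 3, 6 and 12 h with bars of 2 SE, where filled symbols have an adjusted p under 0.05. LAMB1 and FN1 lie at 1.74 and 1.21 at 12 h, TNC lies between -0.71 and -0.85 at all times, and LAMA5 lies below 0 at 3 and 6 h.

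In the study, line and time entered a DESeq2 model as additive terms. Its comparison also covered cells with amplified wt MET, which are not among these 16 libraries. When time was fitted here in edgeR as an effect shared by both lines, 3 of 9 genes were called against 30.6% of all genes. These were TNC (mean log2 fold change over the 3 times 0.94, edgeR, adjusted p = 1.32e-05), LAMB2 (-0.37, adjusted p = 0.00130) and LAMA4 (0.36, adjusted p = 0.0344). FN1 (-0.54, edgeR, adjusted p = 0.0555) and LAMB1 (-0.64, adjusted p = 0.0601) did not pass. Both passed without the 12 h MET∆14 replicate 1 (edgeR, adjusted p = 0.00992 and 0.00718), where 6 genes were called, and both passed in DESeq2, where 7 were. The call of LAMA4 was lost in 7 of 16 fits without 1 library.

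Other laminin chains measured were LAMA1, LAMA2, LAMB4 and LAMC3, of which LAMB4 had at most 8 counts in a library and was not tested. LAMA1, an alpha chain of early basement membranes, had 1 to 6 counts per wt MET library. In the MET∆14 line it rose from 4.69 and 4.37 CPM at 0 h to 16.9 and 12.1 CPM at 12 h (log2 fold change 1.69, SE 0.20, edgeR, adjusted p = 1.54e-05). Of its exon bases 11.1% overlap an exon on the opposite strand, so its reads cannot be assigned with certainty. LAMA2 stayed at or below 2.78 CPM and LAMC3 at or below 1.60 CPM in every library, and neither was called at any time.

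The likeness of responses was measured as the Euclidean distance over the 6 log2 fold changes (3 times, 2 lines) among 8563 genes whose mean log2 CPM reached 3 in both lines. This is a description, and the comparisons of a line share their 0 h libraries. FER, which encodes a tyrosine kinase, was among the 2 genes nearest to TNC (distance 1.04). LAMB1 lay nearest to SHCBP1 (0.350) and LGALS3BP (0.445), and FN1 to CRTAP, which helps modify collagen (0.290), and FOXRED2 (0.310). LAMA5 lay nearest to C22orf46 (0.378) and GEN1 (0.394), LAMA4 to WDFY2 (0.381) and GNB4 (0.384), and LAMB2 to WDR54 (0.145) and NOL3 (0.159). LAMA3 lay nearest to MPV17 (0.130) and AGPAT1 (0.144), LAMB3 to RNF121 (0.155) and ARL14EP (0.167), and LAMC1 to PHF2 (0.102) and RPS6KC1 (0.126). Such distances grow with the size of the changes, and those of TNC were the largest. Within the set the closest were LAMB3 and LAMC1 (0.490), LAMA3 and LAMB2 (0.526) and LAMB1 and FN1 (0.557), and LAMB1 and TNC were farthest from each other (4.93).

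Among 12 basement membrane partners of laminin, 1 was called as higher and 4 as lower at 12 h with wt MET, and 1 and 3 with MET∆14. Of all genes 16.9% were called as higher and 18.2% as lower at 12 h with wt MET, and 18.3% and 20.1% with MET∆14. COL4A1, a collagen IV chain, was at 116 ± 5.04 CPM (SD, n = 2) before HGF and at 306 ± 59.3 after 6 h with wt MET, a log2 fold change of 1.40 (SE 0.15, edgeR, adjusted p = 1.16e-05), and stood at 0.56 (SE 0.15) at 12 h. HSPG2, which encodes perlecan, was 67.2 ± 17.2 CPM before HGF and fell to 33.6 ± 1.34 by 12 h in the wt MET line (log2 fold change -0.995, SE 0.22, edgeR, adjusted p = 0.00297). COL18A1, a collagen of epithelial basement membranes, fell by 0.79 (SE 0.11, edgeR, adjusted p = 8.51e-05) with wt MET. Of the exon bases of HSPG2 and COL18A1, 11.7% and 18.5% overlap an exon on the opposite strand, so their reads cannot be assigned with certainty. NID1, which encodes the nidogen that links laminin to collagen IV, was at 4.34 to 5.48 CPM on average with wt MET. It rose from 255 ± 4.08 to 371 ± 49.8 CPM with MET∆14 (0.54, SE 0.11, edgeR, adjusted p = 0.00158). The median log2 fold change of the list at 12 h was -0.30 with wt MET and -0.09 with MET∆14.

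Of 11 laminin receptors and hemidesmosome genes, 0 were called as higher and 4 as lower at 12 h with wt MET, beside 16.9% and 18.2% of all genes. With MET∆14 5 were called as higher and 1 as lower, beside 18.3% and 20.1%. DAG1, the dystroglycan that binds laminin alpha chains, fell in both lines, from 93.8 ± 12.1 to 53.5 ± 2.62 CPM with wt MET and from 365 ± 16.9 to 198 ± 20.3 CPM with MET∆14. Its log2 fold changes were -0.81 and -0.88 (SE 0.10 each, edgeR, adjusted p = 3.73e-05 and 6.75e-06). ITGB4, the integrin beta chain of hemidesmosomes, fell by 1.10 (SE 0.15, edgeR, adjusted p = 5.96e-05) at 12 h with wt MET and stood at 0.36 (SE 0.14, adjusted p = 0.0533) with MET∆14, a difference of 1.46 (SE 0.20, adjusted p = 0.000123). BCAM, a receptor for the LAMA5 chain, fell by 1.22 (SE 0.15, edgeR, adjusted p = 4.10e-05) with wt MET. PLEC, which links hemidesmosomes to keratin filaments, was higher with MET∆14 by 0.80 (SE 0.17, edgeR, adjusted p = 0.00217) at 12 h, with replicates spread to 2931 ± 1068 CPM. ITGB1, the beta chain of many laminin and fibronectin receptors, rose with MET∆14 from 1397 ± 7.53 to 2054 ± 46.3 CPM (0.56, SE 0.09, edgeR, adjusted p = 0.000283).

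The 11 receptors of fibronectin and tenascin, of which 9 were tested, had 3 called as higher and 2 as lower at 12 h with wt MET (16.9% and 18.2% of all genes), and 4 and 1 with MET∆14 (18.3% and 20.1%). ITGA5, the alpha chain of the main fibronectin receptor, rose from 79.0 ± 3.57 to 190 ± 3.50 CPM at 12 h with MET∆14 (log2 fold change 1.27, SE 0.09, edgeR, adjusted p = 1.21e-07). It rose from 57.4 ± 4.78 to 68.8 ± 3.24 CPM with wt MET (0.26, SE 0.09, adjusted p = 0.0337). SDC4, a syndecan that binds fibronectin beside integrins, was highest at 3 h with MET∆14, at 1214 ± 47.4 CPM against 352 ± 6.04 at 0 h (1.79, SE 0.12, edgeR, adjusted p = 4.73e-08). With wt MET it was highest at 6 h, at 391 ± 2.58 CPM against 172 ± 13.8. SDC1, the epithelial syndecan, fell by 0.78 (SE 0.10, edgeR, adjusted p = 6.89e-05) at 12 h with wt MET and stood at 0.03 (SE 0.10, adjusted p = 0.855) with MET∆14.

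Of 14 other tenascins and matrix glycoproteins, 11 were tested, with 1 called as higher and 4 as lower at 12 h with wt MET (16.9% and 18.2% of all genes) and 0 and 5 with MET∆14 (18.3% and 20.1%). The other tenascin with values to name, TNXB, rose from 11.2 ± 0.233 to 24.9 ± 0.329 CPM with wt MET (log2 fold change 1.15, SE 0.16, edgeR, adjusted p = 7.19e-05), and is uncertain because it has a near-identical partial copy in the genome. THBS1, which encodes thrombospondin, peaked at 3 h with MET∆14 at 1059 ± 90.3 CPM against 313 ± 37.3 at 0 h (1.76, SE 0.14, edgeR, adjusted p = 4.15e-07) and was back at 321 ± 33.1 CPM at 12 h. FBLN1, which encodes a basement membrane fibulin, fell by 0.67 (SE 0.12, edgeR, adjusted p = 0.000607) at 12 h with MET∆14, and CCN1, a matricellular protein gene, fell by 1.47 (SE 0.14, adjusted p = 1.78e-06) at that time. TGFBI, which encodes a secreted integrin ligand, was higher at 6 h with wt MET by 0.45 (SE 0.13, edgeR, adjusted p = 0.0121) and stood at -0.23 (SE 0.13, adjusted p = 0.179) at 12 h.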

How the data were processed

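Poly(A) RNA of both lines was sequenced after 0, 3, 6 and 12 h of HGF. After adapter trimming the authors aligned reads to hg38 by STAR (2.5.0 in the submitters' processing notes) and deposited counts per gene, whole numbers without normalization. The notes also name RSEM 1.3.2 with no role, so the counts may be rounded estimates. The use of strand and the annotation are not given in the sources used here.

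The tests used edgeR 4.0.16 under R 4.3.3. Genes were kept by filterByExpr (minimum count 10, minimum total 15), scaled by TMM and fitted over all 16 libraries with 1 coefficient per condition by robust quasi-likelihood, and a second fit had line and time as additive terms. P-values were adjusted over all 15067 genes by Benjamini and Hochberg (threshold 0.05). CPM use TMM-scaled library sizes, log2 CPM a prior count of 2, and CPM per kilobase the union of exons in GENCODE 44. The SE is the log2 fold change divided by the square root of F. Intervals cover 2 SE. The 9 genes and the other lists were chosen with earlier results of these data known. Beyond the 9 and the other laminin chains, up to 3 genes were named per list and line. These had the largest absolute mean log2 fold change among genes called at any time whose mean log2 CPM reached 3. Also named were the 2 nearest responses to each of the 9, MET, CDKN2A and markers. A gene that these rules name is not reported here. Condition means of MET ranged from 1240 to 1512 CPM with wt MET and from 370 to 421 CPM with MET∆14. Coordinates are 1-based. The scripts were tested on simulated data. Alternatives were DESeq2 1.42.0, its size factors in edgeR, other filters, a replicate block, each line alone, a minimum change, a prior count of 0.5, the longest transcript and each library left out.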

Additional observations from a re-analysis of the deposited data

Results flagged for a closer look

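The response to HGF differed between the lines for 4 of the 9 genes in the joint test of the 3 differences, by the quasi-likelihood F test of edgeR with p adjusted by Benjamini and Hochberg, where 37.6% of all genes did. LAMB1 (adjusted p = 1.40e-05) fell in wt MET cells, in which both replicates at 12 h lay below all others, and was not called in MET∆14 cells with all libraries in the fit used here. LAMA5 (adjusted p = 0.00306) fell at 3 and 6 h with MET∆14 and at 12 h with wt MET. TNC (adjusted p = 0.00432) rose in both lines, with log2 fold changes lower by 0.71 to 0.85 units with MET∆14. FN1 (adjusted p = 0.0143) fell at 6 and 12 h with wt MET and no time was called with MET∆14 in that fit, and its difference was no longer called without the 12 h replicate 1 of wt MET or of MET∆14 (adjusted p up to 0.182).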

How the results depend on the processing

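With 2 libraries per condition, the counts of the 9 genes called moved with the processing, whereas before HGF every member tested was called in each alternative fit of that comparison, 8 of 8 with at least 10 counts in every library and 9 of 9 in the others. DESeq2 called 7 genes for the time effect shared by the lines, 3 from 3 to 6 h with wt MET and 3 from 6 to 12 h with MET∆14, where its size factors in edgeR gave 2. Without a filter on low counts the shared effect had 7 calls, and MET∆14 had 2 at 3 h, 2 from 3 to 6 h and 3 from 6 to 12 h, and wt MET had 2 from 3 to 6 h. With at least 10 counts in every library LAMA4 left the test, and MET∆14 had 3 calls over all times and 2 from 6 to 12 h. Each line fitted alone gave 3 calls from 3 to 6 h with wt MET, and 0 at 3 h and 0 from 3 to 6 h with MET∆14. A required absolute log2 fold change over 1 left 0, 1 and 3 calls at 3, 6 and 12 h and 3 in all with wt MET, 0, 0 and 1 and 1 in all with MET∆14, and 0 in every step between successive times. The causes of these shifts were not tested beyond the genes each setting adds or removes.

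Values called in none of these fits changed sign. That of LAMC1 at 3 h with wt MET was 0.0110 with DESeq2 and with its size factors, 0.0223 without a filter, 0.0142 with the stricter filter and 0.0176 in the line alone. The 12 h difference of LAMB3 was -0.0393 with the stricter filter and -0.00906 with the replicate block.

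When each library was left out in turn, the counts with wt MET ran from 1 to 4 at 3 h, 2 to 5 at 6 h, 4 to 7 at 12 h and over all times, 0 to 3 from 3 to 6 h and 2 to 6 from 6 to 12 h. Those with MET∆14 ran from 0 to 3, 2 to 6 and 3 to 6 at the 3 times, 4 to 6 over all, 0 to 2 from 3 to 6 h and 1 to 5 from 6 to 12 h. Differences between the lines ran from 0 to 3, 2 to 4 and 2 to 5, with 3 to 5 over all, and the shared effect from 2 to 6. In the same fits the following log2 fold changes changed sign, each given as its range. With wt MET they were those of LAMA3 (-0.0757 to 0.123), LAMA4 (-0.345 to 0.731), LAMB3 (-0.294 to 0.431) and LAMC1 (-0.00275 to 0.0302) at 3 h, LAMA4 (-0.937 to 0.140), LAMA5 (-0.0706 to 0.190) and LAMB3 (-0.0247 to 0.698) at 6 h, and LAMA4 (-0.195 to 0.911) and LAMB3 (-0.244 to 0.450) at 12 h. With MET∆14 they were those of LAMC1 at 3 h (-0.00418 to 0.0560), LAMA3 (-0.302 to 0.0269) and FN1 (-0.535 to 0.0987) at 6 h, and LAMA3 (-0.332 to 0.0118), LAMA5 (-0.757 to 0.0657) and LAMB1 (-0.271 to 0.142) at 12 h. Among the differences they were those of FN1 at 3 h (-0.232 to 0.343) and of LAMA4 (-0.155 to 0.947), LAMA5 (-0.0742 to 0.756), LAMB3 (-0.386 to 0.310) and LAMC1 (-0.206 to 0.125) at 12 h. None of these values was called with all libraries.

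Libraries with the same replicate number did not deviate together (28 pairs of conditions, correlations of -0.16 to 0.11). The values thus gave no sign that the numbers pair samples, but they cannot show how the replicates were made. With the replicate block 2, 4 and 6 genes were called at 3, 6 and 12 h with wt MET and 1, 5 and 3 with MET∆14, as without it, and 2 for the shared effect.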
